A study of Canis lupus familiaris and Eptesicus fuscus and Equus caballus with 6 samples.

Results

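In the RNA of an adult testis of the big brown bat (Eptesicus fuscus), 44 of 511 repeat models were filed as PiggyBac or as DNA transposons with no superfamily. They were chosen by the class that follows the model's name in the bat file: 16 models were filed as DNA/PIGGYBAC, 27 as DNA/DNA and 1 as DNA with nothing after it. The study sequenced a small RNA and an mRNA library from the testes of dog, horse and this bat to ask how piRNAs target transposable elements in animals with different element activity. The values below come from the bat mRNA library, with the dog and horse mRNA libraries beside it at the end. The labels give adult testes, frozen before extraction, with no treatment, age in years or strain. Each species had 1 mRNA library, so no value has a replicate error and no test between species was made. The mRNA files hold repeat models and no host genes, so the labelled tissue could not be checked against its markers.

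DNA transposons move by being cut out of the genome and inserted elsewhere by a transposase. PiggyBac elements encode a transposase that recognises short terminal inverted repeats, inserts at TTAA sites and can leave without a scar. Short copies that have lost the transposase gene keep the termini and can be moved by the transposase of a full-length relative; they are called non-autonomous. Vesper bats, the family of Eptesicus and Myotis, are known for recent DNA transposon activity, PiggyBac included, which is rare among mammals. A transcript that maps to an element may come from the element itself or from a gene or long RNA that contains a copy, and these files do not tell the sources apart.

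The 44 models together held 1211.98 expected counts, the reads that the counting program RSEM assigned to a model after splitting reads that fit several models. This was 2.17% of the 55904 expected counts in the bat file (exact 95% binomial interval 2.05 to 2.29%), where the 44 models made up 8.61% of the models. The interval covers counting error only, since it rests on a single library. It leaves out PCR copying, as reads carry no molecular identifiers, and the splitting of reads between models. PiggyBac models held 222.78 counts (0.399%, 0.348 to 0.455%). DNA/DNA models held 753.92 counts (1.35%, 1.25 to 1.45%), and the single DNA model, REP-1_EF, held 235.28 (0.421%, 0.368 to 0.478%). REP-1_EF alone therefore took as many reads as the 16 PiggyBac models within counting error. The 44 models were 4.96% of the counts of all models whose class begins with DNA, with PiggyBac at 0.911%. That total includes Helitrons and the HAL1 models, a LINE-derived name filed under hAT.

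Reads lay on a few models. The 3 with the most counts, MLUC.DNAX1_ML, REP-1_EF and NPIGGYBAC-2_EF, held 65.4% of the counts of the 44, and the 12 models with at least 10 counts held 95.3%. The other 32 models together held 57.51 counts. The median expected count was 2.03 over the 44 models and 14.6 over the other 467 models of the file. By class it was 1 in hAT without the HAL1 models, 7.985 in Tc/mariner and 41.66 in Helitrons. A low median was thus not particular to the 44. Ranked by counts, 3 of the 44 (6.82%) stood among the first 100 models, against 19.6% of all models. Ranked by TPM, which divides counts by model length and scales them to a fixed sum over the file, 5 of the 44 (11.4%) stood there, and DNAX1 came 11th.

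**Figure D1:**
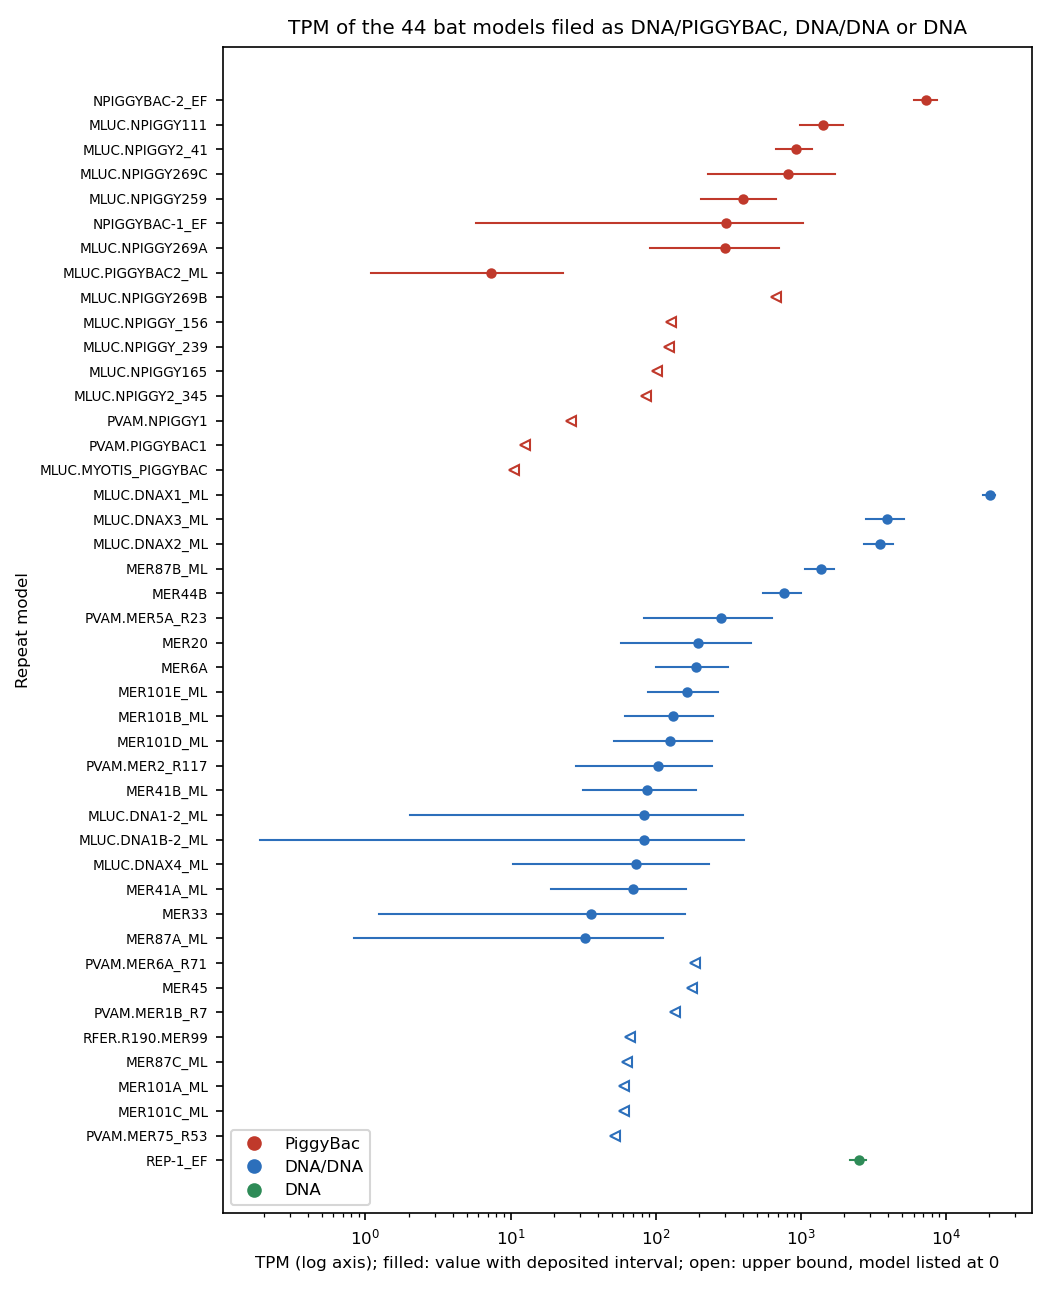
TPM of each of the 44 models on a log axis, coloured by filed class, with lines for the deposited interval; open triangles give the upper bound for the 16 models listed at 0. NPIGGYBAC-2_EF leads the PiggyBac models at 7366 TPM and MLUC.DNAX1_ML the DNA/DNA models at 20257 TPM.

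Among PiggyBac models, the reads were on short non-autonomous elements. NPIGGYBAC-2_EF, a model of 172 nt whose suffix marks Eptesicus fuscus, had 117.79 expected counts and a TPM of 7366 (deposited interval 6026 to 8662). It held 52.9% of the PiggyBac counts and was the 37th model of the file by TPM. MLUC.NPIGGY2_41, of 498 nt, had 47.81 counts and a TPM of 933 (675 to 1206). MLUC.NPIGGY111, of 239 nt, had 33.12 counts and a TPM of 1426 (990 to 1953). On the TPM scale, NPIGGYBAC-2_EF lay above both with intervals that did not overlap, while the intervals of NPIGGY2_41 and NPIGGY111 overlapped. These 3 held 89.2% of the PiggyBac counts.

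The other 5 PiggyBac models with reads had 11 counts or fewer. MLUC.NPIGGY259, of 280 nt, had 11 counts and a TPM of 398 (204 to 678), above the TPM of 108 that 3 counts would give it. MLUC.NPIGGY269C, of 82 nt, had 5.1 counts and a TPM of 813 (228 to 1730), and MLUC.NPIGGY269A, of 147 nt, had 4 counts and a TPM of 301 (91.4 to 705). The TPM of NPIGGY269C stood near that of NPIGGY2_41, which had 47.81 counts, because its model is short, and its interval was far wider. NPIGGYBAC-1_EF, of 82 nt, had 1.9 counts and a TPM of 304 (5.75 to 1036). MLUC.PIGGYBAC2_ML, of 2639 nt, had 2.06 counts and a TPM of 7.29 (1.10 to 23.0).

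The longest PiggyBac models had almost no reads. The 3 models not named as non-autonomous, PIGGYBAC2_ML, MLUC.MYOTIS_PIGGYBAC and PVAM.PIGGYBAC1, are 2210 to 2639 nt long and held 2.06 counts together. That is 0.278 counts per kb (exact 95% Poisson interval 0.0327 to 0.976), with lengths reduced by the 24 nt that the deposited TPM values imply. The 13 models with an N before the family name, 82 to 1066 nt long, held 220.72 counts, or 64.0 per kb (55.9 to 73.1). These intervals did not overlap, nor did they without NPIGGYBAC-2_EF, where the 12 remaining short models had 31.2 per kb (25.5 to 37.8). The same split by name gave 27.7 counts per kb (25.3 to 30.4) for the 7 other hAT models, HAL1 models left out, against 287 (278 to 297) for the 38 named non-autonomous. In Tc/mariner it ran the other way, with 278 counts per kb (271 to 286) for the 23 other models and 99.2 (93.4 to 105) for the 25 named non-autonomous. The leading model there, MLUC.TC2_122_ORF, is named as a coding part and had 2375.08 counts. MLUC.MYOTIS_TC2, of 1728 nt and also with a TC2 name, had 2247.13. Without the leading model of each set, the other and the non-autonomous models had 18.3 and 244 counts per kb in hAT. In Tc/mariner they had 158 and 65.9. The value of 158 still held MYOTIS_TC2, with 2247.13 of the 2762.55 counts left. The direction in Tc/mariner thus rests largely on TC2_122_ORF and MYOTIS_TC2, and the split was not computed without both.

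Of the 16 PiggyBac models, 8 had an expected count of 0, a silent share of 50.0%. The silent models were MYOTIS_PIGGYBAC, PVAM.PIGGYBAC1, PVAM.NPIGGY1, NPIGGY165, NPIGGY269B, NPIGGY2_345, NPIGGY_156 and NPIGGY_239. Over all models of the file 25.0% were silent, and over the 45 hAT models without HAL1 it was 48.9% (22 models). Tc/mariner had 17 silent of 48 (35.4%) and Helitrons 1 of 85 (1.18%). Some hAT and Helitron models are listed under paired names with equal length, count and TPM. Examples are NHAT1_NH with NHAT-1A_NHU, both silent, and NHELIBAT1_CR with NHELIBAT1A_CRA. Such pairs were counted as separate models, here and in the densities. The silent PiggyBac models were 82 to 2626 nt long, with a median of 316.5 nt, against 205.5 nt for the 8 with reads. A floor of 3 counts corresponds to a TPM of 10.7 in MYOTIS_PIGGYBAC but of 479 in the 82 nt NPIGGY269B. The deposited upper bounds of these 2 models were 10.5 and 673. A count of 0 thus set a tight limit on the long models and a loose one on the short ones.

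Silent PiggyBac models were found among long and short ones. Of the 4 PiggyBac models of 600 nt or more, 3 were silent (75.0%), and of the 12 shorter ones 5 were (41.7%). Outside the 44, 22 of 163 models of 600 nt or more were silent (13.5%), and 90 of 304 shorter ones (29.6%). Among hAT and Tc/mariner models of 600 nt or more, HAL1 left out, 9 of 28 were silent (32.1%). Of their models under 600 nt, 30 of 65 were silent (46.2%), no smaller a share than in short PiggyBac models. Under 150 nt, 1 of 4 PiggyBac and none of 3 DNA/DNA models were silent, against 33.3% of the 6 models outside the 44. From 150 to under 300 nt, 3 of 6 PiggyBac and 3 of 8 DNA/DNA models were silent, against 26.6% of 94. From 300 to under 600 nt, 1 of 2 PiggyBac and 5 of 14 DNA/DNA models were silent, against 30.9% of 204. Both DNA/DNA models of 600 nt or more had reads. With at most 14 models in a range these counts are a description of this list of models.

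**Figure D2:**
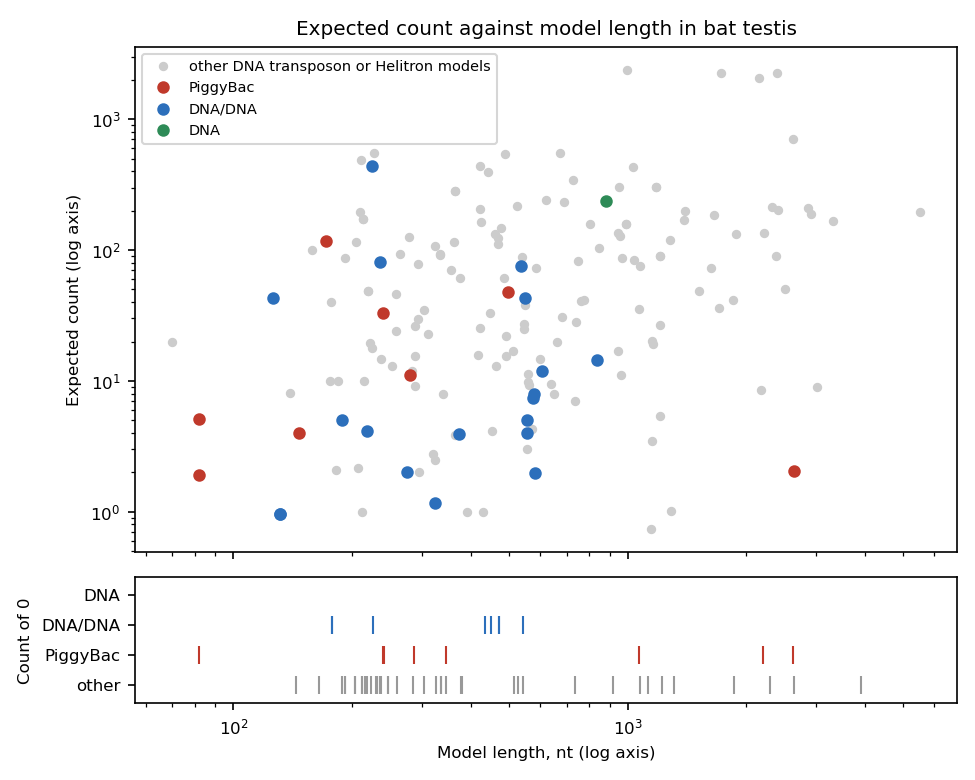
Expected count against model length, both on log axes, for bat models whose class begins with DNA, Helitrons and HAL1 models included. The lower strip marks the lengths of models with a count of 0. The 3 longest PiggyBac models, of 2210 to 2639 nt, lie at 2.06 counts or at 0. MLUC.HAL1-1A_ML, a LINE-derived name filed under hAT, of 2388 nt, had 2247.77. Other models of 2210 to 2639 nt had fewer. MLUC.HAL1-2_ML (2633 nt) had 700.51, HELITRON-60_EF (2317 nt) 214.91, TIGGER1 (2400 nt) 203.74 and MLUC.HAL1-1E_ML (2218 nt) 135.64. HELITRON-16_EF (2384 nt) had 89.5, MLUC.HAT-2_ML (2513 nt) 50.59 and MARINER1_LB (2294 nt) 0.

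Many model names carry a mark, read here as the species in which the consensus was built. The members with reads differed in number between these marks. All 3 members with the suffix _EF (Eptesicus fuscus) had reads, 354.97 counts together, nearly all on REP-1_EF and NPIGGYBAC-2_EF. Of the 28 with the prefix MLUC or the suffix _ML, which stand for Myotis lucifugus, 19 had reads, with 787.58 counts, or 347.63 without DNAX1. Of the 5 with no mark (MER20, MER33, MER44B, MER45 and MER6A) 4 had reads. Of the 7 with the prefix PVAM, 2 had reads, and the 1 with the prefix RFER had none. In the whole file, 83 of 85 _EF models, 174 of 243 Myotis models, 20 of 35 PVAM models and 17 of 42 RFER models had reads. So did 89 of 106 models with none of these marks. How far reads of this bat could be matched to a consensus of another species was not tested.

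Among the 27 DNA/DNA models the 4 called DNAX took most of the reads. MLUC.DNAX1_ML, of 225 nt, had 439.95 expected counts and a TPM of 20257 (18194 to 21927). It held 58.4% of the DNA/DNA counts and 0.787% of all counts in the file, and it was the 23rd model by counts. MLUC.DNAX2_ML, of 236 nt, had 80.73 counts and a TPM of 3524 (2718 to 4349). MLUC.DNAX3_ML, of 126 nt, had 43.17 counts and a TPM of 3917 (2810 to 5155). The TPM of DNAX2 and DNAX3 lay within each other's intervals, and both lay below the interval of DNAX1. MLUC.DNAX4_ML, of 276 nt, had 2 counts and a TPM of 73.5 (10.4 to 233), so that members of this name series spanned a wide range. Together the 4 held 565.85 counts, 75.1% of the class. A model of the same name series, MLUC.DNAX5_ML, is filed under Tc/mariner; it had 91.87 counts at 334 nt, where NMARINER-2_EF, also 334 nt, had 92.87.

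The 21 models with a MER name held 186.13 counts, 24.7% of the DNA/DNA counts, and 8 of them were silent. MER names were given to medium reiterated repeats before their kind was known, so they cover several superfamilies. In the dog and horse files, models with the same MER number carry a superfamily, and this was used to sort the bat models after their values had been seen. By that filing 10 are endogenous retroviruses of the ERV1 group (MER41, MER87 and MER101). Another 5 are hAT, MER99 with a question mark, and 2 are Tigger elements of the Tc/mariner superfamily. The other 4 (MER1, MER6 and MER75 names) had no counterpart. The 10 models with ERV1 names held 116.7 counts, 15.5% of the DNA/DNA counts, and 40.78 without MER87B_ML. The 2 with Tigger names held 47.22 counts (3.91 without MER44B), the 5 with hAT names 10.27, and the 4 without a counterpart 11.94.

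MER87B_ML, of 536 nt, had the most reads of the MER models, with 75.92 counts and a TPM of 1372 (1075 to 1687). Its relatives differed from it: MER87A_ML, of 582 nt, had 1.97 counts and a TPM of 32.7 (0.829 to 113), and MER87C_ML, of 451 nt, had none. MER101E_ML, of 834 nt, had 14.45 counts and a TPM of 165 (88.0 to 269). MER101B_ML, of 578 nt, had 7.93 counts and a TPM of 132 (61.3 to 249), and MER101D_ML, of 574 nt, had 7.43 counts and a TPM of 125 (51.8 to 243). Their intervals overlapped, and MER101A_ML and MER101C_ML were silent. MER41B_ML, of 554 nt, had 5 counts and a TPM of 87.3 (31.8 to 189), and MER41A_ML, of 556 nt, had 4 counts and a TPM of 69.6 (19.0 to 162).

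MER44B, a short Tigger-derived element of 550 nt by the filing of the other files, had 43.31 counts and a TPM of 762 (551 to 1002). MER6A, of 605 nt, had 11.94 counts and a TPM of 190 (100.3 to 316). PVAM.MER5A_R23, of 188 nt, had 4.99 counts and a TPM of 282 (83.0 to 629), and MER20, of 218 nt, had 4.12 counts and a TPM of 196 (58.2 to 456). PVAM.MER2_R117, of 374 nt, had 3.91 counts and a TPM of 104 (28.5 to 246). The intervals of these 4 overlapped on the TPM scale, and none reached the 551 at which the interval of MER44B begins except that of PVAM.MER5A_R23. MER33, of 324 nt, had 1.16 counts. The silent models besides those of MER87 and MER101 were MER45, PVAM.MER1B_R7, PVAM.MER6A_R71, PVAM.MER75_R53 and RFER.R190.MER99. MER75 is known as a PiggyBac-derived family in other mammals, and its model of 542 nt would show a TPM of 53.6 at 3 counts.

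**Figure D3:**
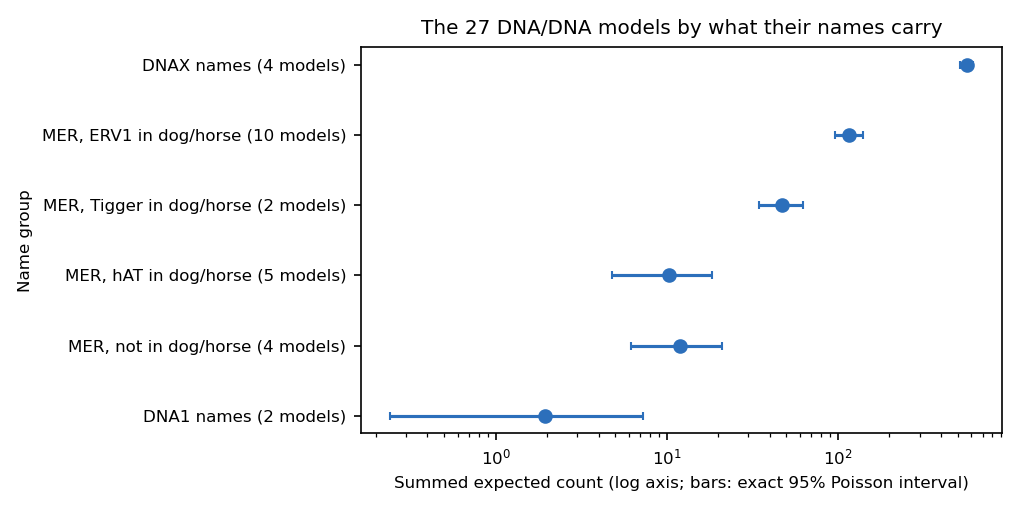
Summed expected counts of the 27 DNA/DNA models by what their names carry, on a log axis, with exact 95% Poisson intervals. The 4 DNAX models hold 565.85 counts and the 10 models with ERV1 names hold 116.7.

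In all, 8 of the 27 DNA/DNA models were silent (29.6%), close to the 25.0% of the whole file. The silent ones were 178 to 542 nt long, and 3 counts would give them a TPM of 53.6 to 180.3. The class had models of 126 to 834 nt, with a median of 434 nt, and a read density of 76.1 counts per kb (70.8 to 81.8). PiggyBac models, 82 to 2639 nt long with a median of 260.5 nt, had 20.5 counts per kb (17.9 to 23.4). REP-1_EF, at 883 nt longer than any DNA/DNA model, had 274 counts per kb (239.7 to 310.9) and a TPM of 2535 (2198 to 2843). Densities were 133 for hAT without HAL1, 211 for Tc/mariner, 143 for Helitrons and 132 for all models outside the 44. The counting intervals of PiggyBac and DNA/DNA lay below each of these values, and that of REP-1_EF above them. Without its leading model the density was 9.81 in PiggyBac (8.02 to 11.9), 32.4 in DNA/DNA (28.9 to 36.2), 115 in hAT without HAL1, 135 in Tc/mariner and 117 in Helitrons, so that the order of PiggyBac and DNA/DNA below the others held. The Tc/mariner value of 135 still held MLUC.MYOTIS_TC2, with 2247.13 of the 3854.23 counts left. It was not computed without that model. HELITRON-10_EF led the Helitrons with 2051.27 counts. MLUC.HAL1-1A_ML, a LINE-derived name filed under hAT, led that class with 2247.77.

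**Figure D4:**
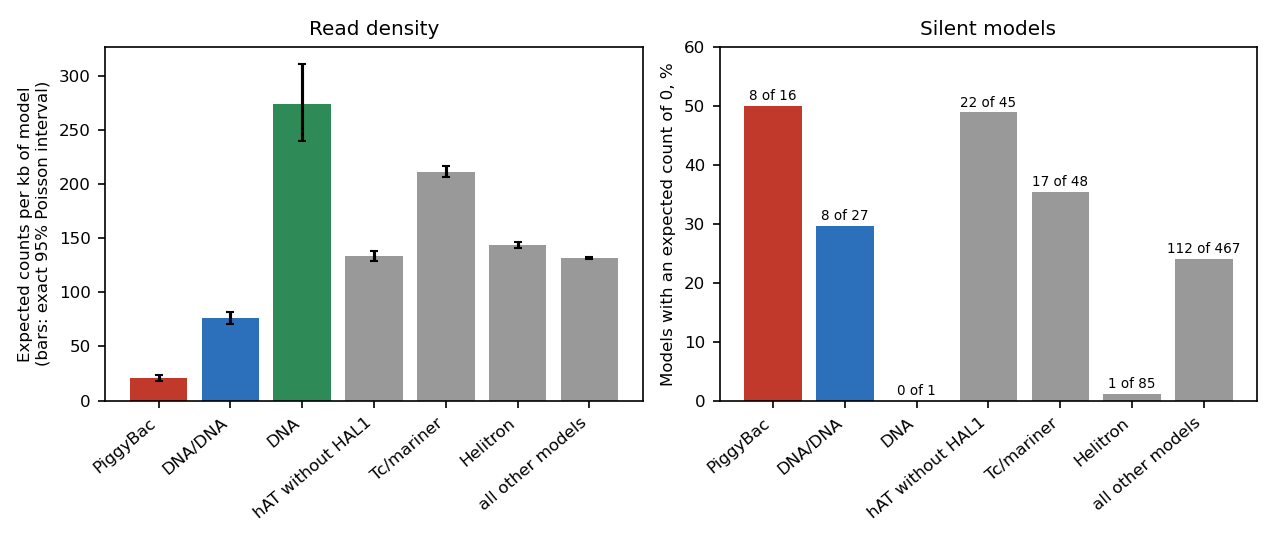
Left, expected counts per kb of model with exact 95% Poisson intervals; right, share of models with a count of 0, with the number of models above each bar. PiggyBac has the lowest density, 20.5 counts per kb, and 8 of 16 silent models.

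Weighing by TPM raised the part of the short models. PiggyBac took 1.15% of the TPM of the file against 0.399% of the counts, and DNA/DNA 3.15% against 1.35%. REP-1_EF, a longer model, went the other way, with 0.253% of TPM and 0.421% of counts. Without NPIGGYBAC-2_EF, PiggyBac took 0.421% of TPM and 0.188% of counts, and without DNAX1, DNA/DNA took 1.15% and 0.566%. A single model held most of the counts of each class.

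Many of the member counts were not whole numbers, which shows that RSEM divided reads between models. Of the 28 members with reads, 23 had a count more than 0.005 from a whole number, and so did 334 of the 383 models with reads in the file. The file does not say with which models reads were shared. MLUC.DNA1-2_ML and MLUC.DNA1B-2_ML, both 131 nt, had 0.97 counts each, with TPM of 83.8 and 83.7. NPIGGY269C, NPIGGYBAC-1_EF and NPIGGY269B are all 82 nt long and had 5.1, 1.9 and 0 counts. Whether models of like name and length shared reads was not tested, and their single values are uncertain. The deposited TPM intervals widened as counts fell: the upper bound was 1.21 to 3.32 times the lower bound in the 12 members with at least 10 counts and 4.07 to 2172 times in the 16 with fewer.

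In the dog and horse libraries, whose lists hold other models, 1 of 2 PiggyBac models had reads and nearly all unassigned DNA models were listed at 0. The 2 PiggyBac models of both files are Looper and UCON29, the latter filed with a question mark. Looper had a TPM of 3.33 (0.593 to 10.5) in dog and 37.1 (23.0 to 54.3) in horse, and UCON29 was listed at 0 in both. Looper took 0.000727% of the TPM of element models in dog and 0.00750% in horse, and the bat file holds element models only. Of 33 models filed as DNA or DNA with a question mark, all were listed at 0 in dog, where 60.8% of the element models were, and 32 in horse, where 41.2% were. The exception in horse was MER130, at a TPM of 1.67 (0.0666 to 7.88). TPM is scaled within each file and the model lists differ, so no fold between species is given.

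Only 3 members occur under the same name in the other files, and their shares of element TPM are given side by side. MER44B took 0.0762% in bat (deposited interval 0.0551 to 0.100%) and 0.0446% in horse (0.0236 to 0.0712%), and it was listed at 0 in dog. MER20 took 0.0196% in bat (0.00582 to 0.0456%), 0.0208% in dog and 0.187% in horse. MER33 took 0.00359% in bat (0.000124 to 0.0160%), 0.00440% in dog and 0.0380% in horse. The highest value was in horse for MER20 and MER33. For MER44B the bat value was highest, but its interval overlapped that of horse. In bat, MER20 and MER33 rest on 4.12 and 1.16 counts, and their intervals span the dog values and not those of horse.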

How the data were processed

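The authors deposited expected counts (bat) and TPM for each repeat model, with the bounds of each TPM interval as a score of no fixed sum, per the file headers. The submitters' processing notes name RSEM and Bowtie without versions, and CanFam3.1 for all samples, bat included; the build for bat, the settings and the level of the intervals are not stated in the labels or headers. Classes are those written after each model's name. The ratio of counts to TPM followed length minus 24 nt (largest deviation 0.0216% over 217 models with at least 20 counts), and densities use these lengths. Sums were rounded for exact binomial and Poisson 95% intervals. Python 3.11.15, pandas 2.3.3 and scipy 1.17.1 were used, and the scripts were tested on simulated data. Silent means an expected count of 0; the floor was 3 counts, 0.00537% of the bat counts. In dog and horse, element models leave out simple repeats, low complexity, satellites and structural RNAs. Members with 3 or more counts were named with full values. Members and lists were chosen with earlier results of these data known. No test was made, as each species had 1 library. Small RNA files were not used: no consensus sequence was used here to place reads on models. Alternatives were other denominators, filters, silence thresholds, lengths and filings.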

Additional observations from a re-analysis of the deposited data

How the results depend on the processing

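Of 38 alternative values for the 3 classes, 24 were classed as unchanged and 14 as moved. For shares of counts, shares of TPM and densities, unchanged means within the counting or deposited interval of the value given. Numbers of models with reads were allowed 1.5 times. Silent shares have no such interval, so for them the classing is no measure of counting error. Without the leading member, shares of counts fell to 0.188% (PiggyBac) and 0.566% (DNA/DNA), densities to 9.81 and 32.4 counts per kb, and shares of TPM to 0.421% and 1.15%. With SINE models left out of the denominator, shares of TPM were 1.88% (PiggyBac), 5.14% (DNA/DNA) and 0.413% (DNA). Without L1-4A_EF, the leading model of the file, the DNA/DNA share of counts was 1.53%. DNA/DNA and DNA as 1 class held 1.77%. Without the 10 models with ERV1 names, an alternative chosen after seeing the data, DNA/DNA held 1.14%. Over models of at least 500 nt, 1 of 10 DNA/DNA models (10%) was silent. With silence at under 3 counts, silent shares were 62.5% for PiggyBac (10 of 16) and 48.1% for DNA/DNA (13 of 27). Posterior mean estimates were not run, since the bat file used here has no such column. No paired analysis was possible because each group has 1 library. Depth limits the 16 members with reads under 10 counts, whose order among each other is not resolved.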
